A study of Homo sapiens with 20 samples.

Results

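KOPT-K is an established line of T cell acute lymphoblastic leukaemia (T-ALL), and its transcript response to the NEMO-binding domain (NBD) peptide was measured on 4 of the 20 Affymetrix arrays of the study. The 4 arrays were chosen by their titles alone. In 2 of them the cells had received a control peptide, and in the other 2 the NBD peptide, both for 16 h. The other 16 arrays hold the same pair of peptides, 2 arrays each, in the T-ALL lines CEM, DND41, HPB-ALL and T-ALL1, and they served to estimate the spread between arrays and to show where KOPT-K differed. No genotype, transgene or further agent is named for any group. The labels give the peptide dose as 100 µM in some fields and 100 mM in others, so nothing here rests on the dose. They do not describe the control peptide further, nor do they name separate cultures for the pair of arrays in each group. The p-values therefore reflect the scatter of these arrays alone, and that scatter may be technical.

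NF-kB transcription factors are held in the cytoplasm by IkB proteins until the IkB kinase (IKK) complex marks these for destruction. The complex joins the catalytic subunits IKKα (CHUK) and IKKβ (IKBKB) to the regulatory subunit NEMO, also called IKKγ (IKBKG), and the NBD peptide copies the stretch by which the catalytic subunits hold on to NEMO. In T-ALL the NOTCH1 receptor is often active and drives HES1, a transcriptional repressor. The title of the study places HES1 upstream of NF-kB through repression of CYLD, a deubiquitinase that restrains IKK.

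The 4 arrays had the profile of a T-ALL line. All 14 T-ALL markers of a fixed list lay above the level used as a filter (a log2 intensity of 5) on all 4 arrays, while this held for 3 of 9 B cell markers, 2 of 10 myeloid markers and 4 of 12 fibroblast and epithelial markers. The summed intensity of the T-ALL markers was 35281 and 35164 on the control arrays and 30324 and 28841 on the NBD arrays, while their median log2 intensity was 8.61 and 8.75 against 8.69 and 8.68. Both NBD arrays lay below both control arrays for 5 of the 14 markers, above them for 1, and overlapped them for 8. The control arrays correlated at r = 0.9963 across genes, the NBD arrays at r = 0.9972, and the 4 pairs across peptides at 0.9944 to 0.9962. For actin, the 3' probe set minus the 5' probe set, which tracks how intact the RNA was, came on the log2 scale to 0.74 and 1.14 with control and 0.97 and 0.73 with NBD, so the groups overlapped. Values are log2 of the deposited RMA (robust multi-array average) intensities, with 1 probe set per gene, and every change is NBD minus control. Arrays have no read depth, and their number limits the precision. In bulk RNA, fewer cells of a kind and less RNA per cell cannot be told apart.

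Of 13787 genes tested, 123 rose (0.892%) and 53 fell (0.384%) in KOPT-K by limma with Benjamini-Hochberg adjustment at 0.05. The change was at least 1.5-fold for 65 of the genes that rose and 23 of those that fell, and at least 2-fold for 25 and 7. The largest rises were those of JUN, the stress ligand gene ULBP2, FOS, ATF3, the autotaxin gene ENPP2 and the metallothionein gene MT1X. FOS and ENPP2 lay below the filter level on both control arrays, so their place among these is uncertain. The falls were led by the helix-loop-helix inhibitor genes ID1 and ID3 and by the Notch genes HES1 and NOTCH3. On all 176 genes both NBD arrays lay outside the range of the control arrays, which was true of 2605 genes upward and 3253 downward among all tested. The median change over all genes was -0.012. Quantile normalization gave 111 higher and 75 lower calls. The calls depended on single arrays: without control 1, control 2, NBD 1 or NBD 2 in turn there were 46, 162, 43 and 54 higher and 21, 47, 27 and 27 lower calls, and 34 of the 123 and 15 of the 53 kept their call without each of the 4 arrays.

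**Figure D1:**
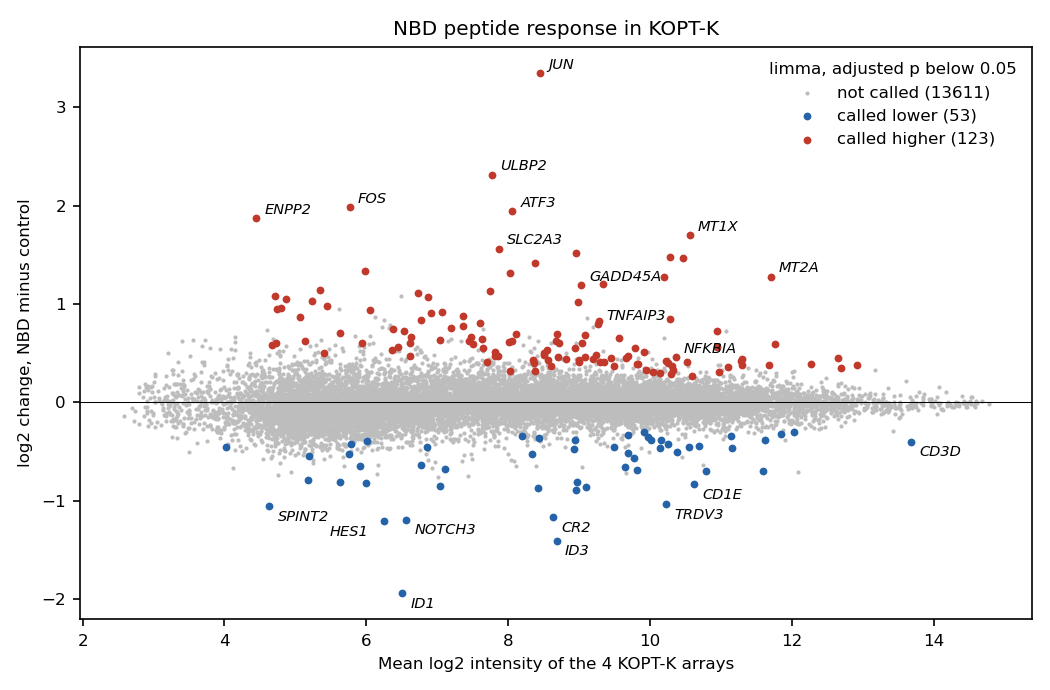
Log2 change in KOPT-K (NBD minus control, vertical axis) against the mean log2 intensity of the 4 KOPT-K arrays (horizontal axis), 1 point per gene tested. Red points are the 123 genes called higher and blue points the 53 called lower by limma; JUN stands apart at 3.35, and ID1 is the lowest at -1.94.

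**Figure D2:**
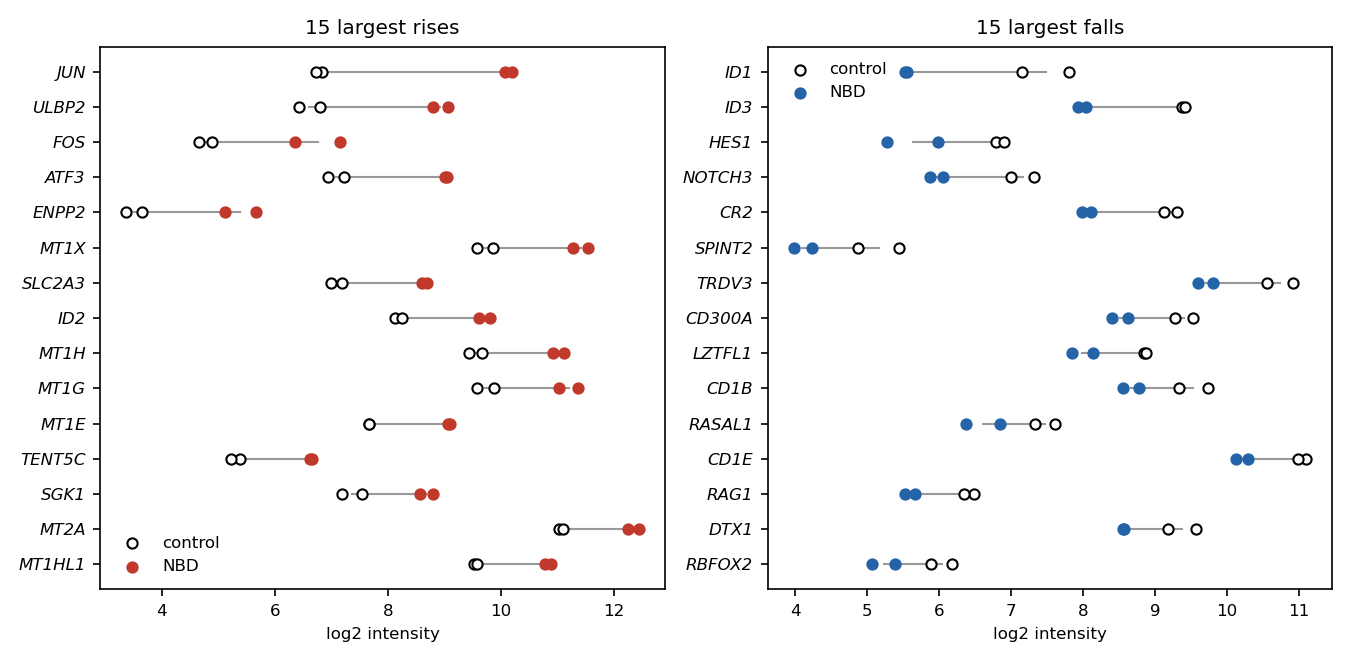
Log2 intensity on each KOPT-K array for the 15 largest rises (left) and the 15 largest falls (right) among called genes. Open circles are control arrays, filled circles NBD arrays, and grey lines join the group means; in all 30 genes the NBD arrays lie on 1 side of the control arrays.

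Genes of the immediate-early response, which cells switch on within minutes of a stimulus, formed the list with the highest median change. The cholesterol list came close (0.37). Over the alternative settings the medians ran from 0.262 to 0.47 and from 0.326 to 0.384, so the order of these lists is uncertain. Of 41 members tested, 13 rose (31.7%, against 0.892% of all genes), none fell (2 had an unadjusted p under 0.05 downward in limma), and the median change was 0.38. This list and those below were chosen with earlier results of these data known. Their shares beside that of all genes are therefore descriptive, and no list was tested as a set. JUN encodes a subunit of the transcription factor AP-1. Its log2 intensity was 6.83 and 6.72 with control and 10.19 and 10.07 with NBD, a 10.2-fold rise (log2 change 3.35, SE 0.09, adjusted p = 9.38e-11). This was the largest change among all genes tested, and the spread within each pair of arrays was small beside it. FOS, a dimer partner of JUN, lay at 4.89 and 4.66 with control, below the filter level, and at 7.16 and 6.36 with NBD (log2 change 1.98, SE 0.24, adjusted p = 0.000505). The NBD arrays of FOS differed from each other by more than those of JUN, yet both lay above the control arrays. ATF3, a stress-induced transcription factor of the ATF and CREB family, went from 6.94 and 7.23 to 9.05 and 9.01, a 3.86-fold rise (SE 0.14 on the log2 scale, adjusted p = 4.85e-06). Another probe set of ATF3 was also called (1.593, adjusted p = 0.019), and a further one, below the filter level, gave -0.136. DUSP10, a phosphatase that acts on JNK and p38 kinases, went from 7.05 and 7.31 to 8.46 and 8.17 (log2 change 1.13, adjusted p = 0.00105). The other called members, given here for completeness and outside the rule that set the named genes, were TRIB1 (1.08), PPP1R15A (0.92), DUSP16 (0.91), FOSL2 (0.86), IER3 (0.81), RGS2 (0.69), FOSB (0.62), ZFP36L1 (0.60) and JUND (0.44), all as log2 changes. The control arrays of TRIB1 (3.68 and 4.66), FOSL2 (4.65 and 4.63) and FOSB (4.85 and 4.80) lay below the filter level, so the size of these changes is uncertain. EGR1 was at 10.57 and 10.83 with control and 11.77 and 11.08 with NBD and missed the threshold (0.73, adjusted p = 0.0748). Without control 1, NBD 1 or NBD 2 in turn 7 of the 13 stayed called, and without control 2, 11 did.

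The promoters of JUN and ATF3 are shown because they hold a sequence that AP-1 and ATF factors bind, and these were among the genes with the largest rises. Each run is the 250 bases before the start of transcription in RefSeq (GRCh38.p14), 5' to 3' on the gene's strand, with matches to an AP-1 or ATF site (TGACTCA, TGACATCA or TGACGTCA, both strands) in capitals. The JUN window is chr1:58784048-58784297 on the minus strand, and its match begins at position -67 relative to the start. The ATF3 window, 1 of the 2 in the table, is chr1:212565157-212565406 on the plus strand, with a match that begins at -123; the other ATF3 window holds none.
JUN: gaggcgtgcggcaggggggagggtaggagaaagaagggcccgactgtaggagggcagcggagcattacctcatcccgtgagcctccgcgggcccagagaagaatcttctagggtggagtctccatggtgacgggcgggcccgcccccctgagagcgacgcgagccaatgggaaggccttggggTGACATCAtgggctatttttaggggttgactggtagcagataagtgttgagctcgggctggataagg
ATF3: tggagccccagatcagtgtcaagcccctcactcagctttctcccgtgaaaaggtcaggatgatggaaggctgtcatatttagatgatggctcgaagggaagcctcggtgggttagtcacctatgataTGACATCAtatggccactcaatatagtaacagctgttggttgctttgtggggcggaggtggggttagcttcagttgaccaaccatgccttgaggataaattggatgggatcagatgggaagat
An AP-1 or ATF site was found in 6 of the 14 windows of called immediate-early genes (42.9%; 11 of the 13 genes were in the table), in 23 of the 143 windows of all genes called higher (16.1%), in 5 of the 55 windows of genes called lower (9.1%), in 6.9% of the windows of genes tested, and in 8.0% of the 35093 windows of the whole table. A match is a run of letters and not a measured binding site.

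NF-kB target genes did not move as a block. Of 33 tested, 4 rose (12.1%, against 0.892% of all genes) and none fell, with a median change of 0.09. At an unadjusted p under 0.05 in limma 8 were upward and 1 downward, against 815 and 816 of the 13787 genes. A change above 0 was seen for 23 members. TNFAIP3 encodes A20, a ubiquitin-editing enzyme that restrains IKK. It went from 8.91 and 8.81 to 9.65 and 9.67, a 1.74-fold rise (SE 0.07 on the log2 scale, adjusted p = 2.35e-05). IER3, an early-response gene, went from 7.17 and 7.22 to 8.17 and 7.84 (log2 change 0.81, adjusted p = 0.00123). CD69, an activation antigen of lymphocytes, went from 8.34 and 8.61 to 9.86 and 9.14 (log2 change 1.02, adjusted p = 0.0123). NFKBIA encodes IkBα, the inhibitor that NF-kB itself induces. It went from 10.08 and 10.17 to 10.63 and 10.54, a 1.38-fold rise (SE 0.08 on the log2 scale, adjusted p = 0.0102), and another probe set of NFKBIA, below the filter level, gave -0.055. With the mean of both probe sets the change was 0.203 and was not called (adjusted p = 0.203). The calls of NFKBIA and CD69 ended without control 1 (adjusted p = 0.109 and 0.145) and without NBD 1 (0.111 and 0.0917). TNF was at 7.14 and 7.49 with control and 8.17 and 7.53 with NBD, and BCL2A1 at 5.45 and 5.32 against 6.21 and 5.66. Neither passed the test (adjusted p = 0.57 and 0.165). GADD45B, at 8.57 and 8.78 against 9.71 and 9.35, missed the threshold with a change of 0.86 (adjusted p = 0.0599).

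The list of IKK and NF-kB pathway components held no called gene. NFKBIA and TNFAIP3, which also act in this pathway and were called, were counted with the targets above. Of 28 IKK and NF-kB pathway components tested by limma, 0 rose and 0 fell, with 2 at an unadjusted p under 0.05 in each direction and a median change of 0.009. Members were spread between -0.29 and 0.32. The peptide's own targets were among them. IKBKG was at 9.20 and 9.17 with control and 9.20 and 9.26 with NBD (0.05, SE 0.08, adjusted p = 0.883). CHUK was at 9.67 and 9.69 against 9.68 and 9.90 (0.11, SE 0.10, adjusted p = 0.765), and IKBKB at 8.71 and 9.03 against 8.75 and 8.65 (-0.17, SE 0.12, adjusted p = 0.652). For IKBKB and IKBKG the arrays of the 2 groups lay close to each other or overlapped. CYLD was at 8.05 and 8.19 with control and 8.37 and 8.51 with NBD, with both NBD arrays above both control arrays, a difference of 0.32 (SE 0.10) that did not pass the test (adjusted p = 0.198). RNF31, the catalytic subunit of the linear ubiquitin ligase, had the lowest value of the list at -0.29 (adjusted p = 0.648).

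Notch receptors and targets formed the list with the lowest median change. Of 27 tested, 8 fell (29.6%, against 0.384% of all genes) and 1 rose (3.7%, against 0.892%), with a median of -0.17. Many of its members are known Notch targets of T-ALL cells. HES1 was at 6.79 and 6.90 with control and 5.99 and 5.28 with NBD, a 2.31-fold fall (log2 change -1.21, SE 0.22, adjusted p = 0.0168). Its NBD arrays differed from each other by more than its control arrays, and its call ended without control 1, control 2 or NBD 2 (adjusted p = 0.106, 0.0739 and 0.182). For HES1, another probe set above the filter level was also called lower (-0.771, adjusted p = 0.0445 in limma). A further one, below the filter level, gave -0.113. NOTCH3, a receptor that is itself a target of NOTCH1, went from 7.0 and 7.32 to 6.06 and 5.88, a 2.28-fold fall (SE 0.15, adjusted p = 0.000812). Another probe set of NOTCH3, above the filter level, gave -0.169 and was not called. CR2, a complement receptor, went from 9.31 and 9.13 to 8.11 and 7.99 (log2 change -1.17, adjusted p = 0.00105), with another probe set, below the filter level, at 0.064. CD300A, an inhibitory receptor, went from 9.53 and 9.27 to 8.63 and 8.40 (log2 change -0.89, adjusted p = 0.00191). These last 3 genes kept their calls without each of the 4 arrays. LZTFL1, a protein of cilia, was at 8.85 and 8.87 against 7.84 and 8.14 (-0.87, adjusted p = 0.012), and DTX1, a ubiquitin ligase of the Notch pathway, at 9.18 and 9.57 against 8.57 and 8.56 (-0.81, adjusted p = 0.0494). The call of LZTFL1 ended without control 1, control 2 or NBD 1 (adjusted p = 0.093, 0.0505 and 0.128), and that of DTX1 without any of the 4 arrays in turn (0.0811 to 0.235).

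NOTCH1 and SHQ1 also fell, by smaller steps, and are given outside the naming rule. NOTCH1 went from 10.34 and 10.59 to 10.10 and 9.98 (log2 change -0.43, adjusted p = 0.0427), and SHQ1, an assembly factor of small nucleolar ribonucleoproteins, from 11.37 and 11.24 to 10.98 and 10.94 (-0.34, adjusted p = 0.0357). NOTCH1 lost its call without control 2, NBD 1 or NBD 2 (adjusted p = 0.196, 0.122 and 0.29) and SHQ1 without control 1, NBD 1 or NBD 2 (0.26, 0.13 and 0.221). The member that rose was CDKN2D, which encodes a cyclin-dependent kinase inhibitor. It went from 10.05 and 10.18 to 10.51 and 10.47 (0.37, adjusted p = 0.0155), a call that ended without control 1, NBD 1 or NBD 2 (adjusted p = 0.162, 0.128 and 0.0861). MYC was at 10.01 and 10.02 with control and 9.42 and 9.18 with NBD (-0.71, SE 0.21), and it did not pass the test (adjusted p = 0.156) although its arrays did not overlap. Over the 9 called members of the list, 4 stayed called without control 1, 5 without control 2, 4 without NBD 1 and 4 without NBD 2.

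The HES1 promoter is printed because it holds TGGGAA, the letters of a core RBPJ site, and Notch is known to act through RBPJ. The window is chr3:194135898-194136147 on the plus strand (RefSeq, GRCh38.p14), the 250 bases before the start, with TGGGAA (both strands searched) in capitals. The matches begin at positions -84 and -70 relative to the start and lie on the same strand. Whether RBPJ binds at either of them was not tested.
HES1: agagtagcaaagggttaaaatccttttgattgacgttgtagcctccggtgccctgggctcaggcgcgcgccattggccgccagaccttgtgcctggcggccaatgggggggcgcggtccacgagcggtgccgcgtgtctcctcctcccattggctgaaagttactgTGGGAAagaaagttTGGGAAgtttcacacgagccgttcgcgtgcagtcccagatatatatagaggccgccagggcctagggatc
TGGGAA was found in 2 of the 10 windows of called Notch genes (20.0%) and in 20.9% of all windows of the table, and the search letters of the other motifs do not contain it.

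**Figure D3:**
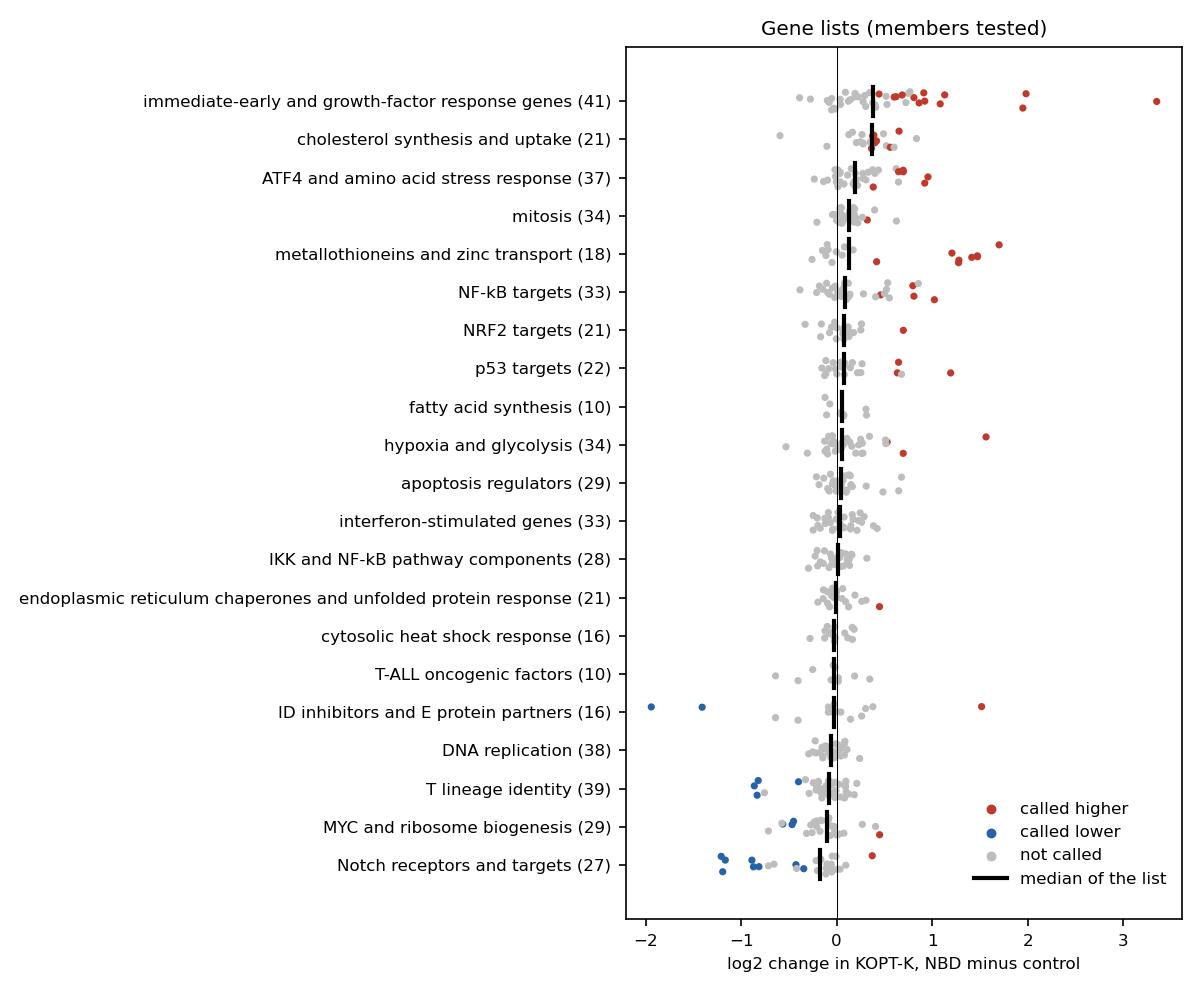
Log2 change in KOPT-K of each tested member of 21 gene lists, 1 row per list with its number of members, ordered by the median (black bar). Red and blue points were called higher and lower. The immediate-early list has the highest median (0.38), close to that of the cholesterol list (0.37), and the Notch list the lowest (-0.17).

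Inhibitors of E proteins, the helix-loop-helix factors that direct T cell development, moved strongly and in opposite directions. ID proteins bind E proteins and keep them off DNA. ID1 was at 7.15 and 7.81 with control and 5.53 and 5.55 with NBD, a 3.84-fold fall (log2 change -1.94, SE 0.15, adjusted p = 1.06e-05) and the largest of all genes tested. ID3 went from 9.37 and 9.41 to 8.04 and 7.93, a 2.65-fold fall (SE 0.11, adjusted p = 1.06e-05). ID2 went the other way, from 8.13 and 8.25 to 9.80 and 9.61, a 2.86-fold rise (log2 change 1.52, SE 0.17, adjusted p = 0.000267). In each of these 3 genes the gap between the peptides exceeded the spread within either pair of arrays, and the call held without each of the 4 arrays. Of the 16 list members tested, 1 rose (6.2%, against 0.892% of all genes) and 2 fell (12.5%, against 0.384%). No other was called, and the list's median was -0.03. The E protein genes TCF3 and TCF12 changed by -0.03 and -0.09, with neither called, and LMO2, a bridging factor of the TAL1 complex, was at 11.17 and 10.96 against 10.58 and 10.28 (-0.64, adjusted p = 0.214).

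Of 39 T lineage genes tested, 4 fell (10.3%, against 0.384% of all genes) and 0 rose by limma (1 had an unadjusted p under 0.05 upward), with a median of -0.08. RAG1, which cuts DNA in receptor gene rearrangement, went from 6.48 and 6.35 to 5.53 and 5.66, a 1.77-fold fall (SE 0.08, adjusted p = 0.000132). CD1B and CD1E, members of the CD1 family made by cortical thymocytes, went from 9.73 and 9.33 to 8.78 and 8.55 (-0.86, adjusted p = 0.00844) and from 11.10 and 10.98 to 10.29 and 10.13 (-0.83, adjusted p = 0.00828). CD3D, which encodes the CD3 delta chain, went from 13.88 and 13.89 to 13.54 and 13.43, a 1.32-fold fall (SE 0.07, adjusted p = 0.0115). The lower summed intensity of the T-ALL markers given above holds CD3D, the brightest of them, and RAG1, so it is not a separate measurement, and the median of the markers was not lower. The calls of CD1B, CD1E and CD3D ended without control 1 (adjusted p = 0.109, 0.0983 and 0.081) and without NBD 2 (0.101, 0.0935 and 0.133). TRDV3, a variable segment of the T cell receptor delta locus outside the list, was at 10.92 and 10.56 with control and 9.81 and 9.60 with NBD (-1.03, SE 0.12, adjusted p = 0.000486), and another of its probe sets, below the filter level, gave 0.002.

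Metallothioneins, small cysteine-rich proteins that bind zinc and copper, rose together. All 7 metallothionein genes that were called, out of 8 tested, rose by 1.21 to 1.70 on the log2 scale, and each kept its call without each of the 4 arrays. MT1X went from 9.57 and 9.86 to 11.54 and 11.28, a 3.25-fold rise (SE 0.14, adjusted p = 1.09e-05). MT2A, the brightest member, went from 11.03 and 11.10 to 12.44 and 12.25, a 2.43-fold rise (SE 0.09, adjusted p = 7.54e-06). MT1E was at 7.67 on both control arrays and at 9.09 and 9.07 with NBD (log2 change 1.41, SE 0.08, adjusted p = 1.38e-06). MT1G went from 9.87 and 9.58 to 11.36 and 11.03 and MT1H from 9.43 and 9.66 to 11.11 and 10.92, both with a change of 1.47. MT1HL1 went from 9.52 and 9.58 to 10.77 and 10.89 (1.28), and MT1F rose by 1.21. Another probe set of MT1F, above the filter level, gave 0.613 and was not called. The group is a multigene family with near-identical copies whose probes can be shared, so these are not 7 independent measurements, and another probe set of MT1G, below the filter level, gave -0.094. MT3 was at 5.36 and 5.49 against 5.52 and 5.33 and was not called (-0.003, adjusted p = 0.997). SLC30A1, the zinc exporter of the cell surface, rose by 0.42 (adjusted p = 0.0348), which brought the list to 8 of 18 (44.4%, against 0.892%), with 0 lower (0 at an unadjusted p under 0.05 downward in limma) and a median of 0.13. The call of SLC30A1 ended without any of the 4 arrays in turn. MTF1, the zinc-sensing factor that binds metallothionein promoters, was at 8.12 and 8.14 against 8.32 and 8.28 (0.17) and was not called.

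The promoters of MT1X and MT2A are shown for the metal response elements that MTF1 recognises. Capitals mark the element's core (TGCACNC or TGCGCNC, both strands). The MT1X window is chr16:56682220-56682469 and the MT2A window chr16:56608334-56608583, both on the plus strand of GRCh38.p14 in RefSeq.
MT1X: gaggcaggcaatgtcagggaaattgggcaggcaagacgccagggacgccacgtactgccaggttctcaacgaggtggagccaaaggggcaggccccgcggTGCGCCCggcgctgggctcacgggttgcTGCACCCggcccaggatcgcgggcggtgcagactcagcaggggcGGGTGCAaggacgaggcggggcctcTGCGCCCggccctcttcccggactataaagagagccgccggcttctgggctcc
MT2A: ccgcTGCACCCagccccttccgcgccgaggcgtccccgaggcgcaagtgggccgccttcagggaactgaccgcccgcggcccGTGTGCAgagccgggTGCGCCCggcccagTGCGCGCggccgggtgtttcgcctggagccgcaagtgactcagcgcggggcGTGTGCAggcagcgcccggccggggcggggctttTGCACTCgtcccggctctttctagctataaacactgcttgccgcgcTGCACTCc
The core was found 4 times in the MT1X window and 7 times in that of MT2A. All 4 windows of called genes of this list held it, for 4 of the 8 genes, against 24.8% of all windows of the table, 30.7% of those of genes tested, 32.9% of those of genes called higher and 30.9% of those of genes called lower. The metallothioneins in the table were members of 1 family, so their promoters are related sequences.

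**Figure D4:**
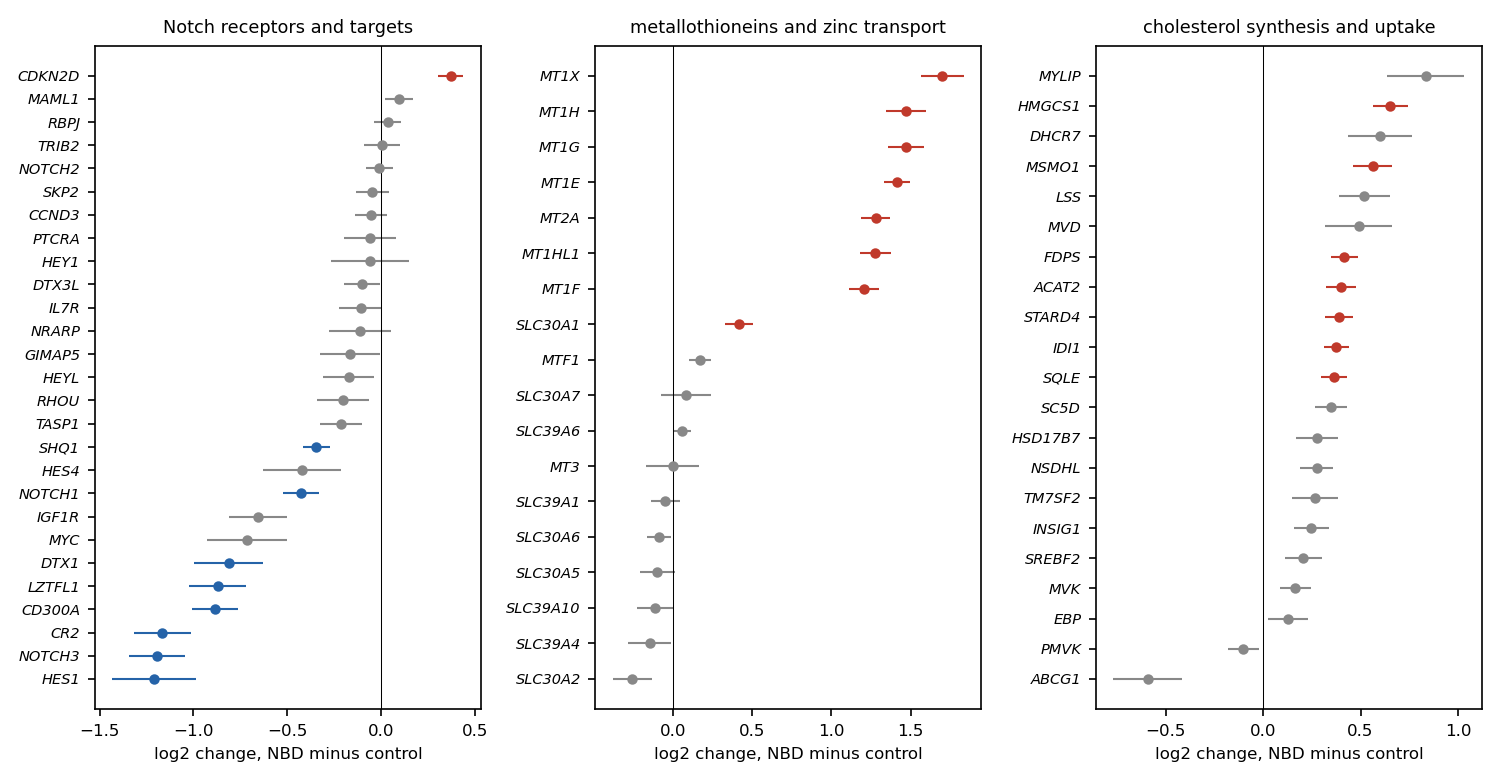
Log2 change in KOPT-K with its standard error (bars) for every tested member of the Notch (left), metallothionein and zinc (middle) and cholesterol (right) lists. Red and blue points were called higher and lower and grey points were not called; the 7 called metallothioneins lie above 1.2, apart from the zinc transporters.

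Of 21 genes of cholesterol synthesis and uptake tested, 7 rose (33.3%, against 0.892% of all genes) and 0 fell by limma (1 had an unadjusted p under 0.05 downward), 19 had a change above 0, and the median was 0.37. The members ran from -0.59 to 0.84. HMGCS1, which makes the precursor of mevalonate, went from 9.27 and 9.20 to 9.85 and 9.93, a 1.57-fold rise (SE 0.09, adjusted p = 0.00164), and its call held without each of the 4 arrays. MSMO1, a demethylating enzyme of the late pathway, went from 10.76 and 10.59 to 11.21 and 11.25 (0.56, adjusted p = 0.0134). FDPS, which makes farnesyl diphosphate, went from 11.10 and 11.04 to 11.55 and 11.42 (0.42, adjusted p = 0.0101), and ACAT2, a thiolase at the start of the pathway, from 10.11 and 10.01 to 10.50 and 10.42 (0.40, adjusted p = 0.0257). STARD4 (0.39), IDI1 (0.38) and SQLE (0.36) were also called and stand outside the naming rule. The members furthest from the rest were MYLIP (0.84, adjusted p = 0.063) and ABCG1 (-0.59, adjusted p = 0.159), which act in uptake and export rather than synthesis. The call of FDPS ended without NBD 1 (adjusted p = 0.121), that of MSMO1 without control 2, NBD 1 or NBD 2 (0.0759, 0.0829 and 0.109), and that of ACAT2 without any of the 4 arrays in turn (0.0818 to 0.174). Of the 7 called members 4, 4, 2 and 3 stayed called without control 1, control 2, NBD 1 and NBD 2 in turn, and 1 without each of the 4. The sterol regulatory element (TCACNCCAC, both strands) was found in 0 of the 8 windows of called genes of the list and in 0.9% of all windows. In fatty acid synthesis 0 of 10 genes were called in either direction by limma, with 2 upward and 0 downward at an unadjusted p under 0.05, among them SCD (0.31, adjusted p = 0.0673) and FADS2 (0.31, adjusted p = 0.076).

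Genes of the ATF4 programme, which cells use under amino acid shortage, rose in part. Of 37 tested, 6 rose (16.2%, against 0.892%) and 0 fell by limma (0 at an unadjusted p under 0.05 downward), with a median of 0.19. CTH, an enzyme of cysteine synthesis, went from 4.15 and 4.48, below the filter level, to 5.01 and 5.54 (0.96, SE 0.17, adjusted p = 0.0123). PPP1R15A, which directs the removal of the phosphate that halts translation, went from 6.50 and 6.70 to 7.47 and 7.58 (0.92, SE 0.13, adjusted p = 0.00242). SLC7A11, the cystine importer, went from 8.09 and 8.60 to 9.0 and 9.09 (0.70, adjusted p = 0.0123). VEGFA, the angiogenic growth factor, went from 7.72 and 7.82 to 8.49 and 8.44 (0.70, adjusted p = 0.00178), while its other probe sets gave 0.247, 0.142 and, below the filter level, -0.035. SESN2, a stress sensor (0.65, adjusted p = 0.0221), and ATF4 itself (0.38, adjusted p = 0.0138) completed the 6. ASNS, a classical target, was at 6.61 and 7.13 against 7.52 and 7.51 and was not called (0.65, adjusted p = 0.269). The call of CTH ended without control 1 or NBD 2 (adjusted p = 0.15 and 0.135), and those of SLC7A11 and SESN2 without control 1 (0.0725 and 0.205), NBD 1 (0.0686 and 0.144) or NBD 2 (0.114 and 0.104). Of the 6, without the same arrays in turn, 2, 6, 3 and 2 stayed called. SLC7A11 was also the single call among 21 targets (4.8%, against 0.892%) of NRF2, the regulator of oxidant defence, and their median was 0.08.

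Of 21 genes of endoplasmic reticulum chaperones and the unfolded protein response, 1 rose (4.8%, against 0.892% of all genes) and 0 fell. This was ERN1, a sensor of misfolded proteins, at 9.31 and 9.56 against 9.77 and 10 (0.45, adjusted p = 0.0409). The call ended without control 1 or NBD 2 (changes of 0.324 and 0.333), and other probe sets of ERN1 gave 0.176 and -0.052. None of 16 cytosolic heat shock genes was called by limma (1 upward and 1 downward at an unadjusted p under 0.05), and HSPA6, the most strictly inducible member, changed by 0.18 (adjusted p = 0.5). Of 22 p53 targets 3 rose (13.6%, against 0.892% of all genes), with a median of 0.07. GADD45A, a growth arrest gene, went from 8.35 and 8.49 to 9.60 and 9.63, a 2.29-fold rise (SE 0.09, adjusted p = 9.92e-06). CDKN1A, which encodes the cell cycle inhibitor p21, went from 6.64 and 6.81 to 7.35 and 7.37 (0.64, adjusted p = 0.0427), and its call ended without any of the 4 arrays in turn (0.0651 to 0.287). SESN2 was the other, and its call ended as given above. Of 34 hypoxia and glycolysis genes 3 rose (8.8%, against 0.892%), namely SLC2A3, VEGFA and PFKFB3. SLC2A3, the high-affinity glucose transporter GLUT3, went from 7.18 and 7.0 to 8.69 and 8.61, a 2.96-fold rise (SE 0.11, adjusted p = 4.85e-06). Its other probe sets, above the filter level, gave 1.247, which was called, and 0.471, which was not. PFKFB3, which sets the level of the activator of glycolysis, went from 8.28 on both control arrays to 8.84 and 8.78 (0.53, adjusted p = 0.00242). All 3 kept their calls without each of the 4 arrays, but with the mean of all its probe sets VEGFA changed by 0.263 (adjusted p = 0.377). The median of the list was 0.05.

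Of 29 genes of the MYC and ribosome biogenesis list, 3 fell (10.3%, against 0.384% of all genes) and 1 rose (3.4%, against 0.892%). The median was -0.10, 23 members had a change below 0, and 10 had an unadjusted p under 0.05 downward and 3 upward in limma. RRS1, a ribosome assembly factor, went from 10.14 and 9.97 to 9.48 and 9.50, a 1.48-fold fall (SE 0.07, adjusted p = 0.000477), and kept its call without each array. NOP16, a nucleolar protein, went from 10.45 and 10.30 to 9.91 on both NBD arrays (-0.47, adjusted p = 0.0272), and SRM, spermidine synthase, from 9.71 and 9.73 to 9.39 and 9.15 (-0.45, adjusted p = 0.0192). The transferrin receptor gene TFRC rose from 12.56 and 12.30 to 12.87 and 12.89 (0.45, adjusted p = 0.0146). The calls of NOP16 (adjusted p up to 0.224), SRM (up to 0.21) and TFRC (up to 0.109) each ended on leaving out 3 of the 4 arrays, which were control 1, NBD 1 and NBD 2 for NOP16, control 1, control 2 and NBD 2 for SRM, and control 2, NBD 1 and NBD 2 for TFRC. Other probe sets of NOP16 gave -0.53, 0.161 and 0.029, and those of TFRC 0.565, 0.648, -0.174 and, below the filter level, -0.087, with none of them called. In mitosis 30 of 34 genes had a change above 0, 11 had an unadjusted p under 0.05 upward and 0 downward in limma, and the median was 0.13. Of these 34 genes 1 was called (2.9%, against 0.892% of all genes), CDC25C (8.22 and 8.21 against 8.61 and 8.46, 0.32, adjusted p = 0.0272). That call ended without control 1, control 2 or NBD 1 (adjusted p = 0.136, 0.0767 and 0.238). Its other probe sets gave 0.449 and, below the filter level, -0.073. None of 38 DNA replication genes was called by limma (0 upward and 5 downward at an unadjusted p under 0.05; median -0.06), with MCM2 at -0.25 (adjusted p = 0.0823) and CCNE1 at -0.29 (adjusted p = 0.162).

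Apoptosis regulators, interferon-stimulated genes and T-ALL oncogenic factors gave 0 calls in either direction by limma, among 29, 33 and 10 genes tested. At an unadjusted p under 0.05 there were 4 upward and 0 downward, 3 upward and 2 downward, and 1 upward and 3 downward. TNFRSF10B, a death receptor, was at 5.21 and 5.79 against 6.25 and 6.12 (0.68, adjusted p = 0.0757), and BIK, a BH3-only protein, at 9.84 and 9.90 against 10.60 and 10.44 (0.65, adjusted p = 0.152). The largest differences among the interferon-stimulated genes were those of OAS1 (0.42, adjusted p = 0.188) and IRF7 (0.39, adjusted p = 0.237), and among the oncogenic factors those of LMO2, given above, and TAL1 (-0.40, adjusted p = 0.313). Of the markers of other cell types, 0 of 7 B cell, 0 of 2 myeloid and 0 of 7 fibroblast and epithelial genes tested were called by limma, with 1 downward in all at an unadjusted p under 0.05. The largest differences of each list were those of CD79B (-0.32), PAX5 (-0.38), CSF1R (0.07), ITGAM (-0.01), DCN (-0.21) and THY1 (-0.22).

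Several of the leading genes belong to no list. ULBP2, a ligand of the NKG2D receptor of killer lymphocytes, went from 6.42 and 6.80 to 9.06 and 8.80, a 4.98-fold rise (SE 0.28, adjusted p = 0.000619). ENPP2 encodes autotaxin, which makes lysophosphatidic acid. It was below the filter level on the control arrays (3.37 and 3.66) and at 5.66 and 5.12 with NBD (1.87, SE 0.17, adjusted p = 2.59e-05). TENT5C, a poly(A) polymerase, went from 5.39 and 5.22 to 6.65 and 6.63 (1.33, adjusted p = 1.09e-05). Another probe set of TENT5C, above the filter level, gave 0.479 and was not called. SGK1, a serum- and glucocorticoid-induced kinase, went from 7.19 and 7.55 to 8.79 and 8.57 (1.31, adjusted p = 0.000163). These 4 kept their calls without each array. Among the falls, SPINT2, a protease inhibitor, was at 5.45 and 4.88 against 4.23 and 3.98 (-1.06, adjusted p = 0.0297), with 3 of the 4 arrays below the filter level. RASAL1, a RAS GTPase-activating protein, was at 7.33 and 7.61 against 6.85 and 6.38 (-0.85, adjusted p = 0.0486), and RBFOX2, a splicing factor, at 6.18 and 5.89 against 5.07 and 5.39 (-0.81, adjusted p = 0.0138). The call of SPINT2 ended without control 1, NBD 1 or NBD 2 (adjusted p = 0.274, 0.0962 and 0.23), that of RASAL1 without any of the 4 arrays in turn (0.0511 to 0.391), and that of RBFOX2 without control 1 or NBD 1 (0.163 and 0.142). The other probe sets of RBFOX2, all below the filter level in KOPT-K, gave 0.067, 0.055 and 0.291.

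The KOPT-K effect was compared directly with the mean effect of the other 4 lines in the same limma fit. It was higher for 45 genes (0.326%) and lower for 9 (0.0653%). These held 35 of the 123 genes that rose and 7 of the 53 that fell. In T-ALL1 the actin 3' minus 5' value was 3.16 and 2.05 with control and 1.07 and 0.99 with NBD. RNA quality thus differed between the peptides in that line, and its part in the T-ALL1 effects was not tested. Without T-ALL1 there were 45 higher and 6 lower calls of difference, of which 35 and 4 were shared with those above. JUN rose by 3.35 in KOPT-K and by 0.97, 0.66, 0.58 and 1.11 in CEM, DND41, HPB-ALL and T-ALL1, a difference of 2.52 (SE 0.10, adjusted p = 1.78e-08). ULBP2 (difference 2.27, adjusted p = 0.00455), ENPP2 (1.86, adjusted p = 0.000283), FOS (1.74, adjusted p = 0.00856), ID2 (1.46, adjusted p = 0.00331) and SLC2A3 (1.39, adjusted p = 0.000109) followed. ID2 had changes of -0.27 to 0.24 in the other lines. ATF3 (1.38), TENT5C (1.26), CD69 (1.23), GADD45A (1.17), SGK1 (1.17) and TNFAIP3 (0.59) also had a higher effect in KOPT-K. GADD45A changed by 0.58, -0.49, 0.17 and -0.17 in CEM, DND41, HPB-ALL and T-ALL1. Of the metallothioneins MT1E differed (0.76, adjusted p = 0.00207), and MT1X and MT1G, both with adjusted p = 0.0697, did not pass.

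On the lower side stood TRDV3 (difference -1.01, adjusted p = 0.00416) and RAG1 (-0.79, adjusted p = 0.00184). RAG1 changed by -0.94 in HPB-ALL and by 0.61 in DND41, so the mean of the other lines hid a spread. ZBED3-AS1 (-0.77, adjusted p = 0.0426), ADGRA2 (-0.65, adjusted p = 0.0234), PRR5, a subunit of the mTORC2 complex (-0.63, adjusted p = 0.0234), and TRIM61 (-0.53, adjusted p = 0.0392) completed the 6 largest. In KOPT-K itself ZBED3-AS1 fell by 0.79 (its call ended without control 1 or NBD 1, adjusted p = 0.117 and 0.0926, and its other probe sets, all below the filter level in KOPT-K, gave -0.268, 0.396 and 0.149) and PRR5 by 0.68, while ADGRA2 (-0.42, adjusted p = 0.0636) and TRIM61 (-0.34, adjusted p = 0.0988) were not called. The Notch falls were not shown to be particular to KOPT-K: the difference was -0.15 for HES1 (SE 0.25, adjusted p = 0.935), -0.61 for NOTCH3 (SE 0.17, adjusted p = 0.183) and -0.75 for CR2 (SE 0.17, adjusted p = 0.0979). HES1 changed by -0.39, -1.03, -0.73 and -2.10 in CEM, DND41, HPB-ALL and T-ALL1, the last with the uneven RNA quality given above. Likewise ID1 (-0.62, adjusted p = 0.204) and ID3 (0.08, adjusted p = 0.919) gave no call for a difference. Of the 176 genes called in KOPT-K, 72 had the same sign of change in all 5 lines.

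The calls of difference depended on which line and array were kept. Without the DND41 line there were 21 higher and 3 lower, with RAG1 at an adjusted p of 0.066, CD69 at 0.0781 and FOS at 0.0654. Leaving out 1 KOPT-K array gave 17 to 87 higher and 2 to 16 lower. Without control 1 or NBD 1, ULBP2 was at 0.0608 and 0.0581 and CD69 at 0.181 and 0.0606. Without NBD 1, FOS was at 0.0596 and SGK1 at 0.051. VEGFA was at 0.0658 without control 1 and 0.0596 without NBD 1, and IER3 at 0.181 and 0.186. CDKN2D was at 0.283, 0.231 and 0.121 and RRS1 at 0.198, 0.182 and 0.0986 without control 1, NBD 1 and NBD 2. On the lower side, without control 1 and without NBD 1, ADGRA2 was at 0.197 and 0.115, PRR5 at 0.208 and 0.0606, TRIM61 at 0.223 and 0.252, and ZBED3-AS1 at 0.319 and 0.242. JUN, ENPP2, ID2, SLC2A3, ATF3, TENT5C, GADD45A, MT1E, TNFAIP3 and TRDV3 stayed below 0.05 without each KOPT-K array and without each other line.

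**Figure D5:**
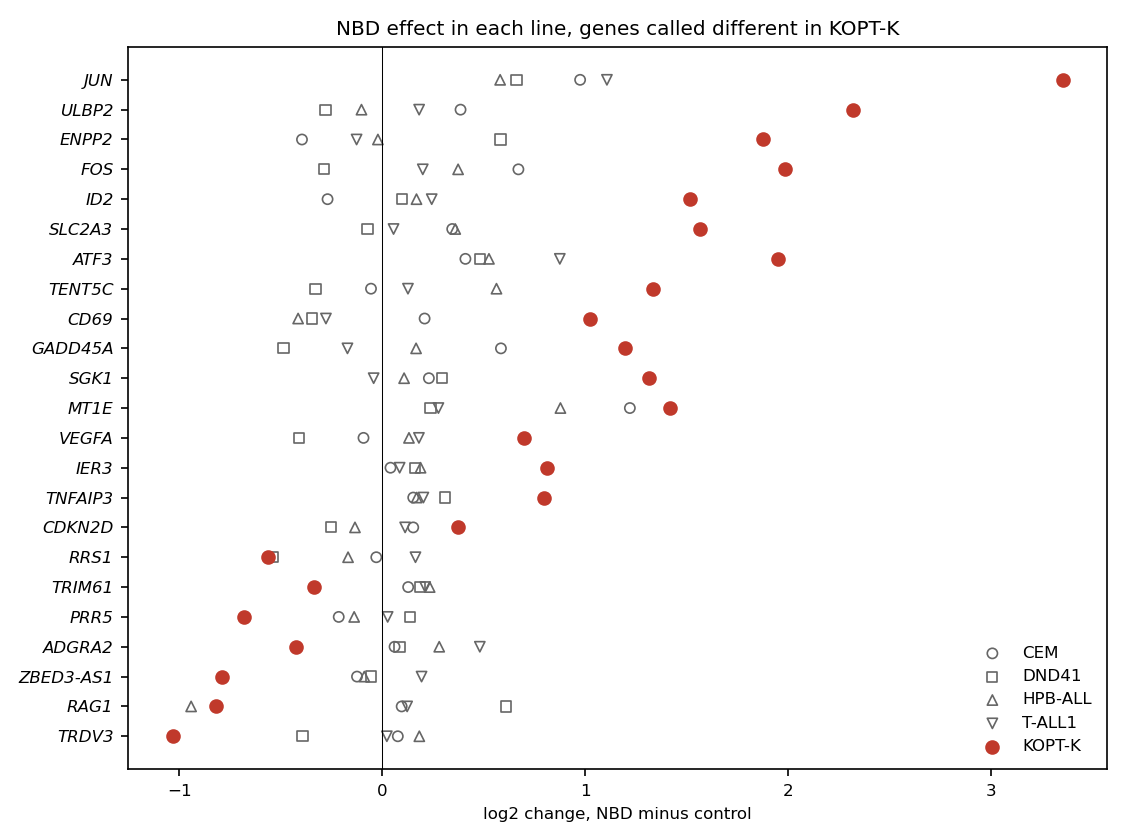
Log2 change (NBD minus control) in each of the 5 lines for the 23 named genes whose KOPT-K effect differed from the mean of the other lines in limma, ordered by that difference. Filled red circles are KOPT-K and open symbols the other lines; for JUN the KOPT-K value of 3.35 lies apart from 0.58 to 1.11 in the others, while for RAG1 HPB-ALL lies below KOPT-K.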

How the data were processed

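The deposited values are array intensities on a linear scale, made by the authors with RMA per the submitters' processing notes; versions and further steps are not given in the sources used here. T-ALL1 and KOPT-K values carry more decimals than those of the other lines and may have been normalized apart, so effects were taken within each line. Here log2 was taken of the deposited intensities. Each gene was represented by the probe set with 1 gene symbol and the highest mean over 20 arrays, and kept if it reached a log2 intensity of 5 on at least 2 arrays. Of 54675 probe sets, 41097 named 1 gene, 1801 several and 11777 none. Of these 41097 probe sets, 41043 were matched to the RefSeq gene table (GRCh38.p14). limma 3.58.1 in R 4.3.3 fitted 10 group means over all lines, with Benjamini-Hochberg adjustment over 13787 genes, and was tested on simulated data. Gene names followed a rule: the 15 largest rises and falls among called genes whose groups did not overlap, the 6 largest differences from the other lines each way, up to 4 called members of each list per direction or else the 2 with the largest change, and 7 genes of the IKK and HES1 question. The members and lists were chosen with earlier results of these data known. Alternatives covered normalization, filter, pseudocount, probe set choice, prior, replicate block, lines and arrays used. Promoters were read from the 250 bases before each RefSeq start. Listed genes with no probe set of 1 symbol were not analysed here.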

Additional observations from a re-analysis of the deposited data

Results flagged for a closer look

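For 23 of the named genes the KOPT-K effect differed from the mean effect of CEM, DND41, HPB-ALL and T-ALL1 in limma at an adjusted p of 0.05. The difference is given for each on the log2 scale, and no explanation was tested. AP-1 and stress genes had a higher effect in KOPT-K: JUN (2.52), FOS (1.74), ATF3 (1.38), GADD45A (1.17) and IER3 (0.69). The surface and secreted proteins ULBP2 (2.27), ENPP2 (1.86) and CD69 (1.23) did too. So did ID2 (1.46), SLC2A3 (1.39), TENT5C (1.26), SGK1 (1.17), MT1E (0.76), VEGFA (0.74), TNFAIP3 (0.59) and CDKN2D (0.4). A lower effect was found for TRDV3 (-1.01), RAG1 (-0.79), ZBED3-AS1 (-0.77), ADGRA2 (-0.65), PRR5 (-0.63), TRIM61 (-0.53) and RRS1 (-0.42). The differences of IER3, CDKN2D, RRS1, TRIM61, ADGRA2, ZBED3-AS1 and PRR5 lost their calls in most leave-outs. TRIM61 lost it without each KOPT-K array, and without CEM, DND41 or HPB-ALL (adjusted p 0.0692 to 0.111). ADGRA2 lost it without T-ALL1, CEM or HPB-ALL (0.0517 to 0.0868). ZBED3-AS1 lost it without each other line in turn (0.0617 to 0.125), and PRR5 without T-ALL1 or DND41 (0.0635 and 0.108). These last 3 also lost it without control 1 or NBD 1, and ADGRA2 and PRR5 without NBD 2. That of IER3 was lost without control 1 or NBD 1 of KOPT-K, T-ALL1, CEM or HPB-ALL (adjusted p 0.0537 to 0.186). That of CDKN2D was lost without control 1, NBD 1 or NBD 2, CEM, DND41 or HPB-ALL (0.0618 to 0.283), and that of RRS1 without the same arrays, T-ALL1, CEM or HPB-ALL (0.0807 to 0.198). VEGFA lost its call without control 1 (0.0658) or NBD 1 (0.0596).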

How the results depend on the processing

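The named calls were stable to scaling and less so to the spread estimate. Of the 57 called named genes, 0 lost the call under median centring, a trended robust prior or a pseudocount of 16. With a stricter filter 56 were still tested, and 0 of these lost it. Quantile normalization ended 3 calls, and leaving out the filter ended 5. With the mean of all probe sets 46 kept the call and 10 lost it, and the remaining gene was not tested. The replicate block ended 24 calls, the T-ALL1 and KOPT-K arrays alone 35 and the KOPT-K arrays alone 43. None of these settings reversed a sign. The 123 higher calls became 37 with the replicate block, 17 with KOPT-K alone and 27 with T-ALL1 and KOPT-K alone, and ranged from 43 to 162 without 1 array. The 53 lower calls became 14, 2 and 6 under the same settings, 91 with the trended robust prior and 88 without T-ALL1, and 21 to 47 without 1 array. The 45 higher differences from the other lines became 76 with the trended robust prior, 11 with the replicate block and 21 without DND41, and 17 to 87 without 1 array. The 9 lower differences became 4 without the filter, 4 with the mean of all probe sets, 1 with the replicate block, 3 without DND41 and 4 without HPB-ALL, and 2 to 16 without 1 array. Leaving out CEM, DND41 or HPB-ALL was chosen after seeing the data. Same-numbered KOPT-K arrays did not deviate together (correlation of deviations -0.181). The labels do not say whether the numbers pair the arrays, and this correlation alone cannot exclude it. Under the replicate block GPX1 (adjusted p = 0.0679), SELENOW (0.0928), VEGFA (0.0526) and PFKFB3 (0.0927) were among the calls lost.

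Of 58 other probe sets of 36 called genes, 12 were called the same way and 0 the opposite way by limma, 46 were not called, of which 22 lay below the filter level, and 17 had the opposite sign, 13 of them below the filter level in KOPT-K: ATF3 (-0.136), CDC25C (-0.073), CR2 (0.064), ERN1 (-0.052), MT1G (-0.094), NFKBIA (-0.055), NOP16 (0.161 and 0.029), RBFOX2 (0.067, 0.055 and 0.291), TFRC (-0.087 and -0.174), TRDV3 (0.002), VEGFA (-0.035) and ZBED3-AS1 (0.396 and 0.149). The cause was not tested. With the mean of all probe sets the changes that lost their call were CDC25C (0.232), CDKN2D (0.192), ERN1 (0.191), LZTFL1 (-0.515), NFKBIA (0.203), NOP16 (-0.202), RASAL1 (-0.599), RBFOX2 (-0.099), TFRC (0.28) and VEGFA (0.263). List medians ranged over the alternatives from 0.262 to 0.47 for immediate-early genes, from -0.276 to -0.152 for Notch, from 0.326 to 0.384 for cholesterol and from 0.09 to 0.295 for metallothioneins and zinc transport. With 2 arrays per group the standard error of a change had a median of 0.115, and the smallest called change was 0.271.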

Other observations

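Selenoprotein transcripts, which carry a recoded stop codon for selenocysteine, included 3 of the genes that fell in KOPT-K. The list was made after these values were seen and was given no test. SELENOH was at 11.93 and 11.94 with control and 11.21 and 11.27 with NBD, a 1.62-fold fall (SE 0.06 on the log2 scale, adjusted p = 2.89e-05 in limma). GPX1, the cytosolic glutathione peroxidase, was at 10.09 and 10.22 against 9.61 and 9.33 (1.61-fold lower, adjusted p = 0.00242), and SELENOW at 10.78 and 10.77 against 10.38 and 10.26 (1.37-fold lower, adjusted p = 0.00239). All 3 kept their calls without each of the 4 KOPT-K arrays. Of 19 selenoprotein genes tested, 3 fell, against 0.384% of all genes, and 14 had a change below 0, against 7361 of the 13787, with a median of -0.07 against -0.012.

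The annexin genes ANXA1 and ANXA2, which encode membrane-binding proteins and stand outside every list, rose together, and they too were picked after their values were seen. ANXA1 went from 6.29 and 6.37 to 7.38 and 7.43 (log2 change 1.07, adjusted p = 0.000812 in limma). ANXA2 went from 8.39 and 8.33 to 9.0 and 8.97 (0.63, adjusted p = 0.00117 in limma). In both genes the effect in KOPT-K was higher than the mean of the other lines, by 1.24 and 0.64.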
